A study of Rattus norvegicus with 150 samples.

Results

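Muscle carrying nickel (Ni) was compared with muscle carrying cobalt (Co) at 1 month after surgery, in 8 libraries of each metal, which are 16 of the 150 libraries of the series. The members were taken by their labels, as the columns labelled Ni and Co at 1 month. All animals were male Sprague-Dawley rats bought at about 30 days of age, and each had 4 metal cylinders in the gastrocnemius, the large calf muscle, with 2 in each limb. The 7 libraries of muscle with tantalum (Ta) at 1 month are given as the sham level, because Ta served as the sham for surgery and for a foreign body. For each metal and time 8 rats were planned, but no library is tied to a rat by the labels. The p-values therefore reflect the spread between libraries, part of which may be technical.

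Cobalt ions are known to hold back the enzymes that mark hypoxia-inducible factors for destruction, and nickel ions can do the same. Both metals are common contact allergens, while tantalum corrodes little and is widely used in implants. A solid implant in muscle is walled off by macrophages and fibrous tissue, beside fibres that degenerate and regenerate. A bulk library mixes all of these cells, so fewer cells of a type and less RNA per cell cannot be told apart in any value below. The genes appear as Ensembl identifiers, for which no names were at hand in the files or the reference table. None is therefore placed in a pathway or a cell type, and the labelled tissue could not be checked against its marker genes.

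The Ni libraries held 14248557 to 17575717 counts each and the Co libraries 14098045 to 16311986. No pair of libraries of one metal agreed within sampling noise, the lowest chi-square per degree of freedom being 16.1. Libraries of both metals stood apart from their groups, before any comparison. Co replicates 1 and 3 had median Spearman correlations of 0.871 and 0.813 with the other Co libraries, against 0.938 to 0.958 for the other 6. Ni replicates 3 and 8 had values of 0.905 and 0.892, against 0.946 to 0.959 for the other 6. The Ta libraries had values of 0.942 to 0.973.

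**Figure D1:**
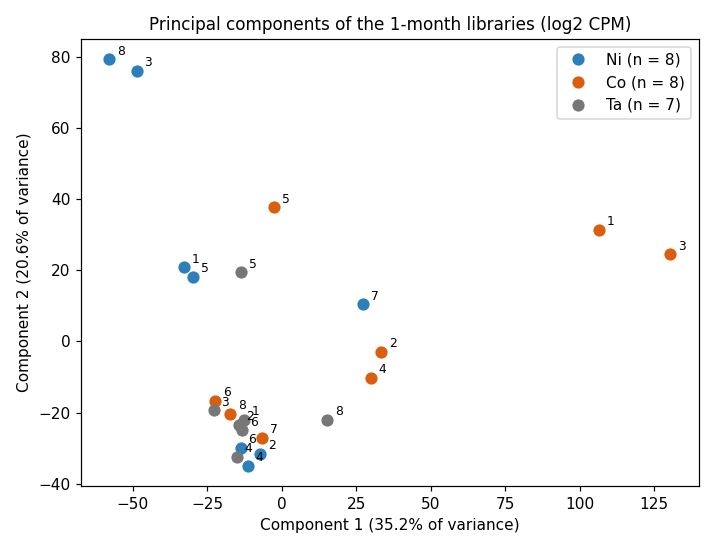
Each point is a library at 1 month placed by its first and second principal component of log2 CPM over 12416 genes, with the metal given by colour and the replicate by the digit. Co replicates 1 and 3 lie far to the right at 106 and 130 on component 1 (35.2% of the variance), and Ni replicates 3 and 8 lie highest on component 2 (20.6%) at 76.0 and 79.3.

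Component 1 of these 23 libraries held Co replicate 3 at 130, Co replicate 1 at 106, and then Co replicates 2 and 4 at 33.3 and 29.8. Ni replicate 7, at 27.4, and Ta replicate 8, at 15.2, came next, and the other 17 libraries lay below 0. The Co group was therefore not of one kind on this axis, and its replicates 5 to 8 lay between -22.4 and -2.57, a range that also held Ta libraries. On component 2 the highest libraries after Ni replicates 8 and 3 were Co replicate 5 at 37.6, Co replicate 1 at 31.3, Co replicate 3 at 24.4, Ni replicate 1 at 20.8 and Ta replicate 5 at 19.4.

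The direct comparison asked whether muscle around nickel differs from muscle around cobalt a month after surgery. No gene passed an adjusted p of 0.05 with edgeR's quasi-likelihood test over 12416 genes (0% called), and the lowest adjusted p was 0.11, shared by 524 genes. At an unadjusted p under 0.05 stood 3235 genes (26.1%), of which 1373 (11.1%) were higher and 1862 (15%) lower with Ni. The differences were of unequal size in the 2 directions. Among the genes lower with Ni, 840 differed by over 2-fold, 261 by over 4-fold and 67 by over 8-fold. Among those higher with Ni, 249, 16 and 4 did. The median log2 fold change was 0.72 (quartiles 0.55 and 0.92) for the genes higher with Ni and -0.92 (quartiles -1.52 and -0.59) for those lower with Ni. Both medians and the counts by size are of genes chosen by this contrast with all 16 libraries, and are given as a description. Without Co replicates 1 and 3 the split at an unadjusted p under 0.05 was 870 higher and 482 lower with Ni. Averages under 1 CPM with Ni and of at least 10 CPM with Co were found for 7 of the 12416 genes, and the reverse for 0. Such genes can pass the low-count filter through Co alone, and an average can rest on a few libraries. This count is therefore a description.

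Whether genes were called at all depended on the model. With Ta at 1 month in the same model, 713 of 13014 genes were called (5.48%), 215 higher (1.65%) and 498 lower (3.83%) with Ni. DESeq2 called 901 of 12416 genes (7.26%), 323 higher (2.6%) and 578 lower (4.66%). A model of all 150 libraries called 3434 of 14762 genes (23.3%), 1299 higher (8.8%) and 2135 lower (14.5%). The spread within a group was smaller with Ta, where the median SD of a gene's log2 CPM was 0.35, than with Ni (0.48) or Co (0.49). Weighted limma voom and an exact permutation test of each gene called 0 genes, with 1738 and 2416 genes at an unadjusted p under 0.05. Weighted limma voom put more of these higher than lower with Ni, 968 against 770. The exact test cannot give a p below 0.000155, so a call over 12416 genes would need many genes at or near that floor. The calls of DESeq2, of the model with Ta and of the model of all 150 libraries had 621 genes in common, 196 higher and 425 lower with Ni. Their medians were 0.98 and -1.67 on the log2 scale in the edgeR fit of Ni and Co alone. These counts also shifted with the scaling. With library totals in place of TMM factors the median log2 fold change of all genes moved from -0.02 to -0.28, and the genes at an unadjusted p under 0.05 split into 440 higher and 2942 lower with Ni, or 13.0% higher where TMM gave 42.4%. TMM factors over all 150 libraries were 0.72 to 1.23 with Ni, 0.899 to 1.71 with Co and 0.949 to 1.10 with Ta. Those of the edgeR fit, computed on its 16 libraries, were 0.699 to 1.19 with Ni and 0.892 to 1.64 with Co.

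A set of 4 identifiers was taken by a fixed rule, the 2 with the lowest p in each direction, and none of them passed the adjusted threshold. ENSRNOG00000042536 was measured at 22.6, 15.7, 22.8, 20.0, 23.6, 22.4, 25.6 and 33.6 CPM in Ni replicates 1 to 8. In Co replicates 1 to 8 it was measured at 7.87, 10.1, 7.46, 13.5, 10.5, 11.9, 16.3 and 7.61 CPM. All but the lowest Ni library lay above every Co library, and only Co replicate 7, at 16.3 CPM, lay above the lowest Ni library. The means were 23.3 ± 5.10 and 10.7 ± 3.13 CPM (SD, n = 8 and 8), which lay 1.12 ± 0.18 apart in log2 (SE, edgeR adjusted p = 0.11). The Ta libraries, with a median of 17.7 CPM, ran from 6.18 to 39.0 CPM and so overlapped both metals. Without Co replicate 7 this gene was the single call, at an edgeR adjusted p of 0.0405.

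ENSRNOG00000059876 was measured at 5.49, 3.36, 9.09, 6.93, 8.79, 4.61, 4.05 and 10.2 CPM in Ni replicates 1 to 8. In Co replicates 1 to 8 it was measured at 2.39, 0.813, 1.12, 1.19, 3.29, 2.69, 1.78 and 1.62 CPM. The 2 groups did not overlap, the lowest Ni library having 3.36 and the highest Co library 3.29 CPM. The log2 fold change was 1.80 ± 0.31 (SE, edgeR adjusted p = 0.11), from means of 6.56 ± 2.56 and 1.86 ± 0.858 CPM (SD, n = 8 and 8). The Ta libraries lay at 0.48 to 3.75 CPM and overlapped both metals. Ta replicates 3 and 6, at 3.44 and 3.75 CPM, lay above every Co library and above the lowest Ni library. Against Ta its log2 fold change was 1.44 ± 0.34 with Ni and -0.39 ± 0.38 with Co (SE, edgeR adjusted p = 0.404 and 0.691), and both comparisons share the Ta libraries.

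ENSRNOG00000057092, lower with Ni, was measured at 5.99, 5.01, 6.09, 5.62, 5.00, 5.36, 12.3 and 3.99 CPM in Ni replicates 1 to 8. In Co replicates 1 to 8 it was measured at 192, 66.6, 326, 59.0, 34.9, 8.96, 10.6 and 5.22 CPM. The Co libraries thus spanned more than an order of magnitude, with replicates 3 and 1 highest and replicates 6, 7 and 8 inside the range of Ni. The log2 fold change was -3.88 ± 0.75 (SE, edgeR adjusted p = 0.11), from means of 6.16 ± 2.55 with Ni and 87.8 ± 114 CPM with Co (SD, n = 8 and 8). Without Co replicates 1 and 3 it was -2.34, with an unadjusted edgeR p of 0.000281, against 7.0e-05 with all libraries. Its edgeR adjusted p was then 0.444, which was the lowest of any gene in that fit. The Ta libraries lay at 4.19 to 14.9 CPM, a range that held 7 of the 8 Ni libraries and Co replicates 6, 7 and 8. Against Ta the log2 fold change was -0.47 ± 0.27 with Ni and 3.33 ± 0.80 with Co (SE, edgeR adjusted p = 0.459 and 0.126).

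ENSRNOG00000029165 was scarce, at 1.52, 1.01, 0.87, 0.915, 1.14, 1.15, 1.18 and 0.855 CPM in Ni replicates 1 to 8, which rest on 9 to 21 counts each. In Co replicates 1 to 8 it was measured at 4.06, 3.25, 5.18, 3.22, 1.86, 1.52, 1.65 and 1.83 CPM, on 22 to 125 counts. The groups touched at 1.52 CPM, the highest Ni and the lowest Co library, and Co replicates 1 to 4 were again the highest. The log2 fold change was -1.42 ± 0.29 (SE, edgeR adjusted p = 0.11), from means of 1.08 ± 0.219 and 2.82 ± 1.33 CPM (SD, n = 8 and 8). The Ta libraries ran from 0.546 to 2.13 CPM and overlapped both groups.

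**Figure D2:**
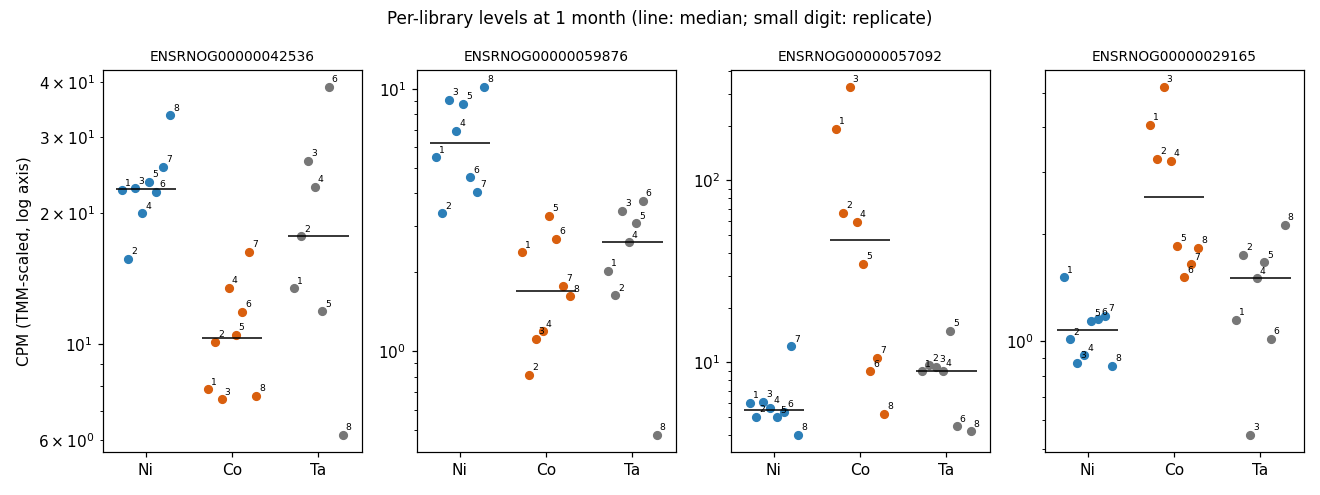
Each point is a library's CPM on a log axis, by metal at 1 month, with the replicate number beside it and a line at the group's median. ENSRNOG00000042536 and ENSRNOG00000059876 are higher in nearly all Ni libraries than in Co libraries, while for ENSRNOG00000057092 the Co libraries run from 5.22 to 326 CPM.

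At 1 month muscle with the metal labelled P and with depleted uranium (DU) gave further levels for these 4 genes. ENSRNOG00000042536 had a median of 30.5 CPM with P (18.8 to 46.9) and 27.8 CPM with DU (13.5 to 52.4), 8 libraries each. ENSRNOG00000059876 had medians of 5.55 with P (2.63 to 7.46) and 4.99 CPM with DU (2.55 to 10.5). For these 2 genes the medians with Ni, P and DU lay above those with Co and Ta. ENSRNOG00000057092 had medians of 7.78 with P (2.60 to 13.1) and 4.47 CPM with DU (2.71 to 8.38). ENSRNOG00000029165 had medians of 1.21 with P (0.495 to 1.44) and 0.949 CPM with DU (0.52 to 1.63). For the latter pair the Co medians, 46.9 and 2.54 CPM, were the highest of the 5 metals at 1 month. These differences between P, DU and the other metals were not tested.

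Few genes separated the 2 metals completely. With CPM scaled by TMM factors, 7 of 12416 genes (0.0564%) did not overlap between the 8 Ni and the 8 Co libraries, 3 higher (0.0242%) and 4 lower (0.0322%) with Ni. The log2 fold changes of the 3 ran from 0.76 to 1.80 and those of the 4 from -1.42 to -0.66, so none of the 7 differed by over 4-fold. ENSRNOG00000059876 and, by a margin that vanishes on rounding, ENSRNOG00000029165 were among them. With library totals in place of TMM factors 1 gene was higher and 5 were lower with Ni in all libraries.

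The genes lower with Ni were highest in a few Co libraries, as the values of each library describe. Of these 1862 genes, Co replicate 1 lay above the highest Ni library for 1761 (94.6%) and Co replicate 3 for 1759 (94.5%). Co replicates 4 and 2 did so for 947 (50.9%) and 937 (50.3%), Co replicate 8 for 543 (29.2%), and Co replicates 7, 5 and 6 for 326, 323 and 209. Over all tested genes these shares were 27.5% and 31.4% in replicates 1 and 3, and 6.12% to 15.0% in the other 6. The 1862 genes were chosen by this contrast in the same libraries, so their larger shares are a description. Co replicate 3 had the highest value of its group for 1308 of the 1862 genes. For 516 of the 1862 genes 4 Co libraries lay above every Ni library, and for 417 genes 2 did. Averaged over the 1862 genes, log2 CPM was 4.56 and 4.32 in Co replicates 3 and 1, and 3.23, 3.19, 2.78, 2.63, 2.59 and 2.43 in Co replicates 2, 4, 5, 7, 8 and 6. In the Ni libraries it ran from 1.89 to 3.00, replicate 7 being the highest, and in Ta from 2.36 to 2.88. Without Co replicate 1 the count lower with Ni was 1203 and without Co replicate 3 it was 1071. Without both of these libraries it was 482 of 12522 genes, while 870 were higher. These 2 libraries also had the highest TMM factors in the fit of the 16 libraries, 1.38 and 1.64. The count lower with Ni was 1782 under RLE size factors and 2942 without TMM factors.

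The genes higher with Ni were highest in a few Ni libraries. Of these 1373 genes, Ni replicates 8 and 3 lay above the highest Co library for 1204 (87.7%) and 1163 (84.7%), and Ni replicates 1 and 5 for 910 (66.3%) and 904 (65.8%). Ni replicates 4, 7, 6 and 2 did so for 318, 215, 175 and 165 genes. Over all tested genes the shares were 26.0% and 25.3% in replicates 8 and 3 and 4.12% to 15.7% in the other 6. The 1373 genes too were chosen by this contrast in the same libraries, so their larger shares are a description. Exactly 4 Ni libraries above every Co library was the most frequent pattern, with 575 genes. The mean log2 CPM of these genes was 5.02, 5.01, 4.56 and 4.54 in Ni replicates 3, 8, 1 and 5, and 3.99 to 4.06 in the other 4. It ran from 3.23 to 4.19 with Co, lowest in replicates 3 and 1 and highest in replicate 5, and from 3.54 to 4.37 with Ta, highest in replicate 5. Without Ni replicate 3 the count higher with Ni was 820 and without Ni replicate 8 it was 838. Without both it was 540 of 12822 genes, while 1298 were lower. In the fit of the 16 libraries, Ni replicates 3 and 8 had the lowest TMM factors, 0.699 and 0.715. They also had the highest shares of counts in their 10 most abundant genes, 34.3% and 35.4%. Under RLE size factors 1448 genes were higher with Ni and without TMM factors 440 were, while the part of the abundant genes' share was not tested.

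**Figure D3:**
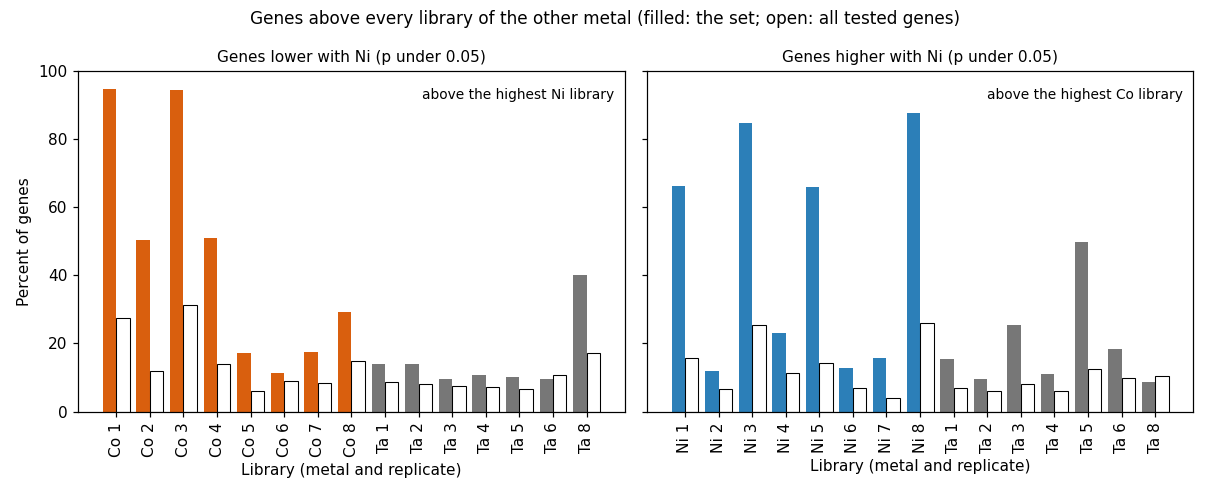
Filled bars give, for each library, the percent of the genes lower with Ni (left, Co and Ta libraries) or higher with Ni (right, Ni and Ta libraries) that lie above every library of the other metal, and open bars give the same over all 12416 genes. On the left Co replicates 1 and 3 reach 94.6% and 94.5% and Ta replicate 8 reaches 40.2%, and on the right Ni replicates 8 and 3 reach 87.7% and 84.7% and Ta replicate 5 reaches 49.8%. Both sets of genes were chosen by this contrast in the same Ni and Co libraries.

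The spread differed between the directions too. For 1397 of the 1862 genes lower with Ni (75.0%) the SD of log2 CPM was larger with Co than with Ni, and the median SDs were 0.76 with Co, 0.52 with Ni and 0.38 with Ta. Of the 1373 genes higher with Ni 551 (40.1%) had the larger SD with Co, with medians of 0.49, 0.55 and 0.40. Over all tested genes it was 6875 (55.4%). Both sets were chosen by this contrast in the same libraries, so their spreads are a description.

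The direction of the difference went with how abundant a gene was in muscle with Ta at 1 month, a level that neither group enters. Of 780 genes under 1 CPM in Ta, 38 were higher and 207 lower with Ni at an unadjusted p under 0.05, and their median log2 fold change was -0.35. Such genes pass the low-count filter more easily if they are high with a metal, so this class is given as a description. Among 5009 genes of 1 to 10 CPM, 475 were higher and 961 lower (median -0.09), and among 5628 genes of 10 to 100 CPM 711 were higher and 675 lower (median -0.00). Among 906 genes of 100 to 1000 CPM, 138 were higher and 19 lower (median 0.17), and of 93 genes over 1000 CPM 11 were higher and 0 lower (median 0.14). Among genes of at least 100 CPM in Ta, more were thus higher than lower with Ni. With library totals in place of TMM factors the medians of the 2 most abundant classes turned negative, at -0.06 and -0.05, and stayed above the median of all genes there, -0.28.

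**Figure D4:**
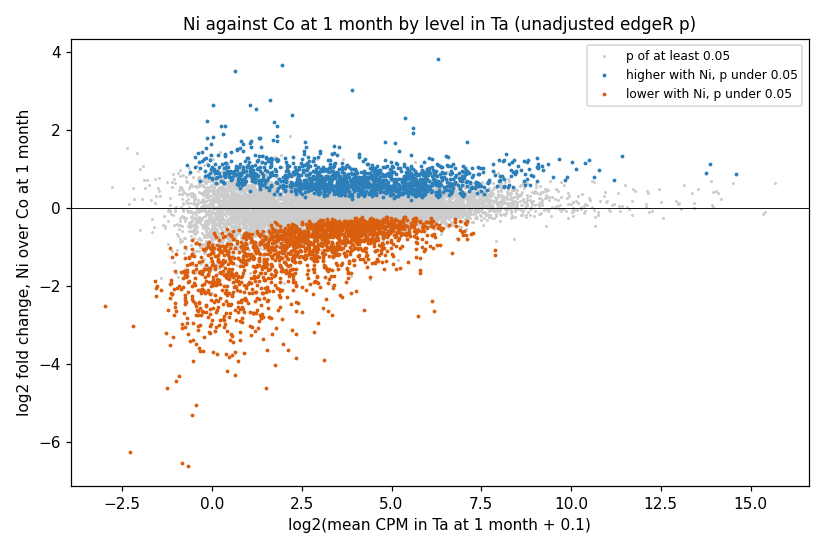
Each point is a gene, with its mean level in Ta at 1 month as log2(CPM + 0.1) on the x axis and the log2 fold change of Ni over Co on the y axis. Genes lower with Ni at an unadjusted p under 0.05 (1862) fan out below 0 at the left, and those higher with Ni (1373) form a band that reaches the most abundant genes.

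Whole-library measures of the 16 libraries did not pass a test. The 10 most abundant genes took 30.0 ± 4.27% of the counts with Ni and 26.0 ± 4.14% with Co (SD, n = 8 and 8). The difference of 3.95 percentage points had an exact two-sided permutation p of 0.0799, which became 0.16 over 2 such tests. Without Ni replicate 4 or 7 the exact permutation p, unadjusted, was 0.0398 or 0.0339. Co replicate 3 was the lowest at 17.1% and Ni replicate 8 the highest at 35.4%, against 24.8% to 31.2% in Ta. Genes of at least 1 CPM numbered 11756 ± 231 with Ni and 11971 ± 562 with Co (SD, n = 8 and 8; exact permutation p = 0.336, adjusted 0.336). Co replicates 1 and 3 had the most, 12795 and 12728, followed by Ni replicate 7 with 12281.

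Each metal was set against Ta to place the 2 groups, with the Ta libraries shared by both comparisons. With edgeR no gene passed for Ni (0% of 12355) or for Co (0% of 12512). At an unadjusted p under 0.05 stood 1517 genes for Ni (12.3%), 1066 higher (8.63%) and 451 lower (3.65%). For Co there were 1820 (14.5%), 1358 higher (10.9%) and 462 lower (3.69%). DESeq2 called 3 and 522 genes there. The genes lower with Ni than with Co had a median log2 fold change against Ta of -0.17 with Ni and 0.63 with Co. Those higher with Ni had medians of 0.46 with Ni and -0.25 with Co, while the medians over all tested genes were 0.02 and -0.00. Since these genes were chosen by their values with Ni and Co, the medians are a description.

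The same contrast at 3 months used other libraries, 8 of each metal, and shared none with 1 month. There edgeR called 1507 of 12403 genes (12.2%), 83 higher (0.669%) and 1424 lower (11.5%) with Ni, while weighted limma voom called 1. Of the 1424, 1344 were tested at 1 month. At 1 month 722 of them (53.7%) were lower with Ni at an unadjusted p under 0.05, against 15% of all genes tested. Another 4 (0.30%) were higher, against 11.1% of all genes. Their median log2 fold change was -0.96 at 1 month and -1.65 at 3 months, where they had been chosen. Weighted limma voom gave 135 genes lower (10.04%, against 6.20% of all genes) and a median of -0.28 at 1 month. The exact permutation test gave 285 (21.2%, against 10.4%) and a median of -0.62. The lead shrank without Co replicates 1 and 3 at 1 month, where the median was -0.09. Then 112 of 1345 genes (8.33%) were lower at an unadjusted p under 0.05, against 3.85% of all genes, and 70 (5.20%) were higher, against 6.95%. Without Co replicate 3 alone the median was -0.54.

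The 83 genes called higher with Ni at 3 months were not placed one way at 1 month. Their median log2 fold change at 1 month was -0.10, with 55 of 83 below 0 (66.3%, against 51.5% of all genes tested). At an unadjusted p under 0.05, 6 (7.23%) were higher, against 11.1% of all genes, and 1 (1.20%) was lower, against 15%. Without Ni replicates 3 and 8 the median was 0.037, with 35 of 83 below 0 (42.2%, against 51.9% of all genes). In that fit 6 (7.23%) were higher, against 4.21% of all genes. In the other direction, of 1821 genes lower with Ni at 1 month (unadjusted p under 0.05) and tested at 3 months, 1666 (91.5%) had the same sign at 3 months and 722 (39.6%) were called lower there, against 11.1% of all genes tested at both times. Of 1359 such genes higher with Ni, 968 (71.2%) had the same sign and 6 (0.442%) were called higher, against 0.683% of all genes tested at both times. Over all 12159 genes tested at both times 66.7% had the same sign. Without Co replicates 1 and 3 of 1 month this share was 52.0% of 12190 genes, and without Ni replicates 3 and 8 it was 71.7% of 12302. The 1821 and 1359 genes were chosen with all 16 libraries of 1 month, and their shares were not computed without those replicates.

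**Figure D5:**
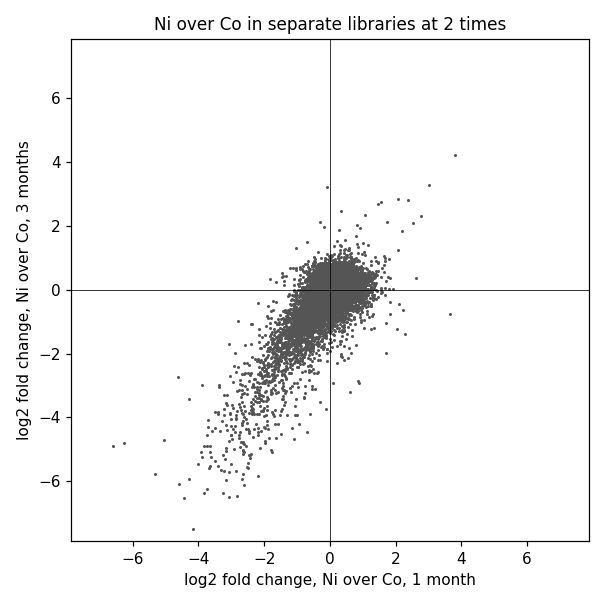
Each point is one of 12159 genes tested at both times, with the log2 fold change of Ni over Co at 1 month on the x axis and at 3 months on the y axis. The points stretch along the diagonal on the negative side (Pearson r = 0.73 across genes), and the positive side holds no such tail.

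Across those 12159 genes the log2 fold changes at the 2 times had a Pearson r of 0.73 and a Spearman rho of 0.51. Genes are not independent replicates, so no p is given. Without Co replicates 1 and 3 of 1 month the values were 0.22 and 0.09 over 12190 genes, and without Ni replicates 3 and 8 they were 0.81 and 0.60 over 12302. Whether the contrast differed between the 2 times was tested by an interaction term in a model of the 32 libraries. With edgeR no gene passed (0% of 13559), and 1780 had an unadjusted p under 0.05 (13.1%). The count of calls was 21 with DESeq2 and 168 with weighted limma voom.

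The 4 genes divided by direction in this respect. At 3 months ENSRNOG00000057092 had a median of 9.34 CPM with Ni (3.13 to 57.6) and 85.3 CPM with Co (6.88 to 352), and Ni lay at -2.98 ± 0.80 relative to Co in log2 (SE, edgeR adjusted p = 0.0253). ENSRNOG00000029165 had medians of 1.17 with Ni (0.84 to 2.72) and 2.97 CPM with Co (0.381 to 6.35), and Ni lay at -1.30 ± 0.48 relative to Co on that scale (SE, edgeR adjusted p = 0.0817). Both thus had lower medians with Ni at both times, and only the first passed, at 3 months. ENSRNOG00000042536 had medians of 7.64 with Ni (3.68 to 38.6) and 5.53 CPM with Co (4.02 to 32.2), and ENSRNOG00000059876 of 1.35 (0.328 to 5.60) and 1.07 CPM (0.447 to 4.99). For this latter pair the groups overlapped almost entirely at 3 months, with log2 fold changes of 0.41 ± 0.55 and 0.04 ± 0.57 (SE, edgeR adjusted p = 0.601 and 0.96). The interaction of ENSRNOG00000059876 was 1.75 ± 0.68 on the log2 scale (SE) and did not pass (edgeR adjusted p = 0.306).

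At 6 months the medians of the 4 genes were close between the metals, in 8 Ni and 7 Co libraries. ENSRNOG00000042536 had medians of 42.8 with Ni and 40.0 CPM with Co, and ENSRNOG00000059876 of 4.95 and 5.30 CPM. ENSRNOG00000057092 had medians of 5.20 and 4.54 CPM, and its highest Co library had 7.96 CPM, where 1 month had 326 and 3 months 352 CPM. ENSRNOG00000029165 had medians of 0.844 and 0.964 CPM. The difference between Ni and Co at 6 months was not tested here.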

How the data were processed

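RNA-seq libraries of rat gastrocnemius were analysed from deposited whole-number counts per gene (32545 genes, 150 libraries), without normalization. HISAT2 2.0.5, featureCounts 1.5.0-p3 and build Rnor_6.0 are named in the submitters' processing notes. Annotation and strand setting are not given in the sources used here. Reads may be shared between overlapping, antisense or near-identical genes. Per the labels' protocols, a stranded total RNA kit was used, with 10 samples in a lane, and no library's lane is given.

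Each comparison used its own groups: filterByExpr, TMM factors, robust dispersions and the quasi-likelihood test of edgeR 4.0.16 (limma 3.58.1, R 4.3.3), with Benjamini-Hochberg adjustment over all genes tested. Each SE is the absolute log2 fold change divided by the square root of F. CPM values use TMM factors computed on all 150 libraries. A prior count of 2 was used for log2 CPM. Exact permutation tests used scipy 1.17.1 or, per gene, all 12870 splits. Alternatives included DESeq2 1.42.0. The test was checked on counts simulated for each gene on its own. That check held no shift shared by many genes of a library, so it does not cover libraries that stand apart.

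None of the identifiers matched the reference table, which held 0 Ensembl identifiers, so 39 gene lists were not tested. Named genes are the 2 of lowest p in each direction that averaged at least 1 CPM with a metal and had at least 6 of its 8 libraries beyond the median of the other metal. The members, lists and rules were chosen with earlier results of these data known. Replicate numbers were not used as a pairing in the main tests, since the labels do not say that they tie libraries together.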

Additional observations from a re-analysis of the deposited data

Results flagged for a closer look

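Of 41 groups of values examined, 5 had a library far from the rest of its group by Dixon's test at the 95% level. With normal values in independent groups, chance alone does so in about 1 in 20 groups. The values of single genes were CPM without a log and the groups share libraries, so that rate does not apply directly to the 5. Ni replicate 7 at 1 month had 12281 genes of at least 1 CPM, against 11532 to 11805 in the other Ni libraries. The same library had the highest level of ENSRNOG00000057092 with Ni at 1 month, 12.3 CPM. Ta replicate 8 at 1 month had a mean log2 CPM of 2.88 over the 1862 genes lower with Ni than with Co, above the 2.36 to 2.53 of the other Ta libraries. At 3 months ENSRNOG00000057092 had 352 CPM in Co replicate 2 and 57.6 CPM in Ni replicate 4, each far above the rest of its group. No cause of these values was tested.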

How the results depend on the processing

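The count of 0 called genes for Ni against Co at 1 month held with RLE size factors and with limma voom. It also held with no low-count filter and without TMM factors. The exact test gave 0 too, but its smallest possible p makes a call over so many genes hard to reach. The count was also 0 in 3 fits chosen after seeing the data, which left out Co replicates 1 and 3, Ni replicates 3 and 8, or all 4. It became 901 with DESeq2, 713 with Ta in the model, 3434 with all 150 libraries, and 0 to 1 when each library was left out in turn. With the replicate number as a block it was 1 (ENSRNOG00000001295, named after its value was seen, adjusted p = 0.023). The labels do not say that a number ties libraries together. At 1 month same-numbered Ni and Co libraries had correlations of -0.42 to 0.33. There 1 of 8 Ni libraries correlated best with its own number, and the libraries of 3 months were not examined for this. Whether the numbers stand for a shared batch was not tested.

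The genes higher with Ni at an unadjusted p under 0.05 (1373) numbered 440 without TMM factors, 2193 with all 150 libraries, 870 without Co replicates 1 and 3, 540 without Ni replicates 3 and 8, 464 without all 4, and 820 to 1771 when single libraries were left out. Those lower with Ni (1862) numbered 3079 without the filter, 770 with limma voom (968 higher), 937 with the replicate block, 2942 without TMM factors, 3045 with all 150 libraries, 482 without Co replicates 1 and 3, 264 without all 4, and 1071 to 2188 when single libraries were left out. The cause was not tested.

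At 3 months the 1507 calls became 1 with limma voom, 0 with the replicate block and 3980 with all 150 libraries. The 0 calls of the interaction became 21 with DESeq2, 168 with limma voom and 310 with all 150 libraries. Ni against Ta at 1 month gave 3 calls with DESeq2 and 35 with all 150 libraries, and Co against Ta 522 and 1697. The share of the 10 most abundant genes differed by 2.68 to 4.77 percentage points when single libraries were left out, with an exact p of 0.0398 without Ni replicate 4 and 0.0339 without Ni replicate 7. The median at 1 month of the 83 genes called higher with Ni at 3 months was 0.037 without Ni replicates 3 and 8. That of the 1424 called lower was -0.62 with the replicate block, where 250 (18.6%) were lower at an unadjusted p under 0.05, against 7.55% of all genes. The 4 named genes kept their direction in all 28 alternatives, and each passed in 3 or 4 of them.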

Other observations

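The genes set apart by Ni and Co at 1 month were also read in muscle with P and with DU at 1 month, 8 libraries each. Over the 1862 genes lower with Ni, the mean log2 CPM was 2.46 ± 0.09 with P and 2.42 ± 0.13 with DU (SD, n = 8 each), against 2.37 ± 0.34 with Ni, 3.22 ± 0.81 with Co (SD, n = 8 each) and 2.53 ± 0.17 with Ta (SD, n = 7). Over the 1373 genes higher with Ni it was 4.19 ± 0.20 with P and 4.19 ± 0.23 with DU, against 4.40 ± 0.44 with Ni, 3.69 ± 0.32 with Co (SD, n = 8 each) and 4.00 ± 0.25 with Ta (SD, n = 7). The spread between libraries in both sets was thus smallest with P and largest with Co for the former set and with Ni for the latter. These genes were chosen by their values with Ni and Co, and no difference from P or DU was tested.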
